A study of Mus musculus with 8 samples.

Results

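The accessibility map of control mouse embryonic fibroblasts (MEFs, day 0) was described from 4 of the 8 libraries of the series. These were chosen by their group labels, with earlier results of these data known. The cells of 2 libraries had received the GpC methyltransferase M.CviPI (treated) and those of the other 2 had not (untreated), and no other difference between these groups is given in the labels. The remaining 4 libraries came from day 1 of Etv2-induced reprogramming and entered only 1 alternative fit. All 4 day 0 libraries were genomic DNA of MEFs, and the labels name neither the mouse strain and age nor the construct that carries Etv2, nor whether day 0 cells carry it. Nothing in the labels ties the 2 libraries of a group to different cultures or animals, so each SD and p-value measures only the spread between these libraries, which may be technical.

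NOMe-seq reads open chromatin through DNA methylation. M.CviPI methylates cytosines that follow a guanine (GpC) wherever nucleosomes or other proteins do not block it, and bisulfite sequencing then separates methylated from unmethylated cytosines on single molecules. Mammalian cells methylate mostly cytosines in CpG, so GpC methylation is low unless the enzyme was added. Active promoters, above all those in CpG islands, commonly carry a nucleosome-free stretch just upstream of the transcription start, followed by a well-placed first nucleosome.

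The called cytosines can be seen directly in the promoter sequences. RefSeq sequences on GRCm38.p6 (the same assembly as mm10) were matched to the sites by position, and 4 upstream windows are shown here to represent the promoter classes. Among promoters with calls in both treated libraries and no overlap with another gene, they are the 3 of 31 CpG-rich windows with the most calls in their thinnest library and the 1 of 4 CpG-poor windows with the most treated calls. Each runs 5′ to 3′ for 250 bases up to the base before the transcription start, on the strand of its gene. Capitals mark cytosines called in any of the 4 libraries, printed as G where the called cytosine lies on the opposite strand.
Calu (calumenin, a calcium-binding protein of the secretory pathway), chr6:29347856-29348105, plus strand: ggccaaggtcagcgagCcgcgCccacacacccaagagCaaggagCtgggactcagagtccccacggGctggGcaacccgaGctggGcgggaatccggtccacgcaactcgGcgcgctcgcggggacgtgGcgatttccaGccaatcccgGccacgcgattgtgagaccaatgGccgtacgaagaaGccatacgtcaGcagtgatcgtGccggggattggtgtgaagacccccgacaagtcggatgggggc
Josd1 (a deubiquitinase), chr15:79687873-79688122, minus strand: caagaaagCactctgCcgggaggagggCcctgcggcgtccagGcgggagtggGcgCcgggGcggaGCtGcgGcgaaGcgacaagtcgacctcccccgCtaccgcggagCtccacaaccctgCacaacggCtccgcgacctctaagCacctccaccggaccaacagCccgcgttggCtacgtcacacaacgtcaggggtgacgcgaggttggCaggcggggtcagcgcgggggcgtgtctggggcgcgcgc
Map1lc3b (LC3B, a protein of autophagosome membranes), chr8:121590188-121590437, plus strand: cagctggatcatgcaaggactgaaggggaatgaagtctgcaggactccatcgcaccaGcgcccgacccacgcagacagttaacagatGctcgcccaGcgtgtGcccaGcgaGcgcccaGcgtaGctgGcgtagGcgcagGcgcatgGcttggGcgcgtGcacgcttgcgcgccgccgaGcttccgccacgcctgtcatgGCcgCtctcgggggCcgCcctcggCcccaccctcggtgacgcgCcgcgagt
Lrrc31 (a leucine-rich repeat protein), chr3:30699844-30700093, minus strand: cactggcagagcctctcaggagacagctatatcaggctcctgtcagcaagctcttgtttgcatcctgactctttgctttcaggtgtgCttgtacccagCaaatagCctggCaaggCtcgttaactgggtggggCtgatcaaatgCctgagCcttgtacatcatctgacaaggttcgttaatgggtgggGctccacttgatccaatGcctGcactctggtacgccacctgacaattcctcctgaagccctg

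The first 3 windows were CpG-rich, with CpG observed over expected ratios of 0.92, 1.02 and 0.98. In the Map1lc3b window 11 of 12 calls (91.7%) and 53 of 58 calls (91.4%) were methylated in the treated libraries, against 0 of 3 and 0 of 18 in the untreated ones. In the Josd1 window 15 of 22 (68.2%) and 25 of 33 (75.8%) treated calls were methylated, against 0 of 6 and 0 of 18 untreated calls. The treated replicates of Calu lay far apart, at 4 of 12 (33.3%) and 18 of 24 (75%), and its untreated libraries gave 0 of 18 and 2 of 23 (8.7%). Lrrc31, with a CpG ratio of 0.15, had 6 of 24 (25%) and 1 of 9 (11.1%) methylated treated calls and no untreated call. Single promoters thus rested on a few reads each, and calls of one read are not independent, so the map was read from pooled levels.

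The context of the calls was checked in the RefSeq promoter windows. From 6452 to 9359 sites per library fell in these windows, and in every library 100% of them were GpC cytosines followed by A, C or T, which is the class that excludes overlap with CpG. Coverage was thin: the sites were 0.617% to 0.895% of the 1045615 such cytosines in the windows. The pooled treated level differed with the base that followed. It was 45.2% ± 0.633 at GCA, 50.4% ± 1.17 at GCT and 54.1% ± 0.123 at GCC (SD, n = 2), with untreated levels of 1.11%, 1.58% and 1.68%. GCC made up 38.3% of these cytosines in the windows and 42% and 41.6% of the treated sites. The windows were not split by CpG content here, so the part of promoter type in these differences was not tested.

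Each library held 439527 to 568331 sites and 1693307 to 2138058 calls (a call being 1 read at 1 cytosine), with the treated libraries the larger ones. No site had under 3 reads, the median site had 3, and 87.4% to 87.8% of autosomal sites had exactly 3. Sites over 100 reads numbered 244 to 325 per library but held 8.81% to 9.76% of calls, and they were set apart from every value that follows unless stated.

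Across the autosomes, 29.15% and 29.08% of calls were methylated in the treated libraries and 2.305% and 2.368% in the untreated ones. The groups did not overlap and differed by 26.8 percentage points, many times the SD of 0.0494 and 0.0447 points (n = 2). The exact two-sided permutation p was 0.33, the smallest that 2 against 2 libraries allow, and this limit applies to every comparison of pooled levels here. Each of the 1188 autosomal windows of 1 Mb with at least 500 calls in both treated libraries had its lowest treated level above its highest untreated level. Treated levels of the windows ran from 25.2% at the 5th to 32.8% at the 95th percentile around a median of 28.9%.

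Pooled over calls, transcription starts were far more open than the rest of the genome. Sites were placed by the nearest of 20063 starts of protein-coding genes on the autosomes, most of which had no treated call close by. The level was 59.1% ± 0.976 from 150 bp upstream to the base before the start (SD, n = 2, sites over 2 kb from transcript ends). Over the first 50 bp of the transcript it was 61.3% ± 0.842. The treated libraries gave 58.4% and 59.8% upstream and 61.9% and 60.7% downstream, and the untreated ones between 1.21% and 1.63%. In bins of 50 bp the level then dropped to 37.1% ± 1.64 at 100 to 149 bp and 37.2% ± 0.98 at 150 to 199 bp. It was 42% ± 3.2 at 200 to 249 bp, where the replicates stood at 44.3% and 39.7%, and 34.7% ± 0.261 at 300 to 349 bp. The drop from the start to 100 to 199 bp was larger than the spread between replicates, while the higher value at 200 to 249 bp rested mainly on 1 library. Upstream the level declined without such a drop, from 45.6% ± 0.0726 at 151 to 250 bp to 38.6% ± 1.48 at 251 to 500 bp and 29% ± 0.308 at 1001 to 2000 bp. These pooled levels weigh each start by its calls, and CpG-rich promoters gave most of them. In the 300 bp promoter windows, CpG-rich ones held 15115 and 12658 treated calls, intermediate ones 2702 and 2118, and CpG-poor ones 2458 and 2361.

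Transcript ends, taken for the 16431 ends whose strand could be matched and over 2 kb from starts, showed no such opening. In the 150 bp before the annotated end the treated level was 27.7% ± 1.04, and in the 11 windows from 2000 bp before to 1999 bp after the end it lay between 27.7% and 30.2%. Untreated levels at transcript ends were 1.64% to 2.22%. The same windows at transcription starts spanned 29% to 61.3%.

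**Figure D1:**
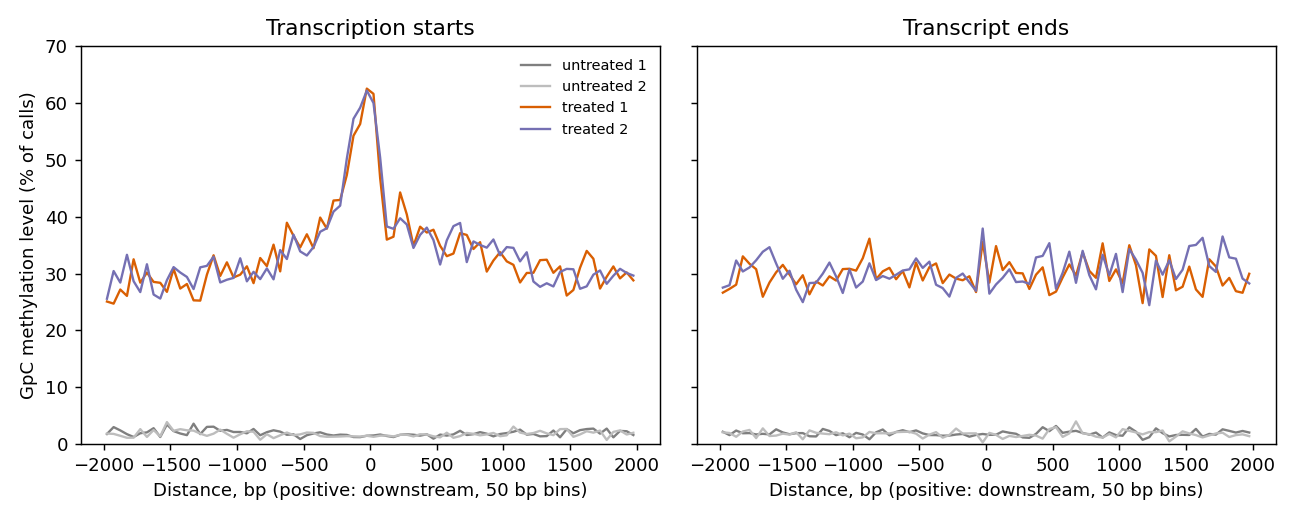
GpC methylation level (percent of calls, y axis) in 50 bp bins against distance from transcription starts (left) and transcript ends (right) of protein-coding genes, 1 line per library. Both treated libraries peak near 62% just upstream of the start and fall to about 37% at 100 to 199 bp, while untreated libraries stay near 2% throughout; ends near a start of another gene are not left out of the right panel.

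Openness at promoters went with CpG content. The 300 bp RefSeq windows (250 bp before and 50 bp after the start) were split by their ratio of observed to expected CpG. In the 9830 CpG-rich windows (0.6 or more) treated levels were 63% and 61.7%, a mean of 62.3% ± 0.906. The 3999 intermediate windows (0.3 to 0.6) gave 43.8% and 49.3%, and the 6256 CpG-poor windows (under 0.3) gave 32.3% and 38.1%. The 3 classes did not overlap in the treated libraries, whereas untreated means were 1.35%, 1.75% and 1.35% from the richest to the poorest class. Within 100 bp upstream of the start the treated mean was 66.8% in the CpG-rich class, 49.2% in the intermediate class and 33.8% in the CpG-poor class. Downstream, at 100 to 199 bp, the same classes stood at 38.2%, 38.6% and 29.3%. CpG-rich windows also held more GC dinucleotides (32.9 per window against 14.9 in the poor class), and the part of base composition in the difference was not tested. Of the classes, 1155 and 1038 CpG-rich windows but only 223 and 212 CpG-poor windows had any treated call.

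**Figure D2:**
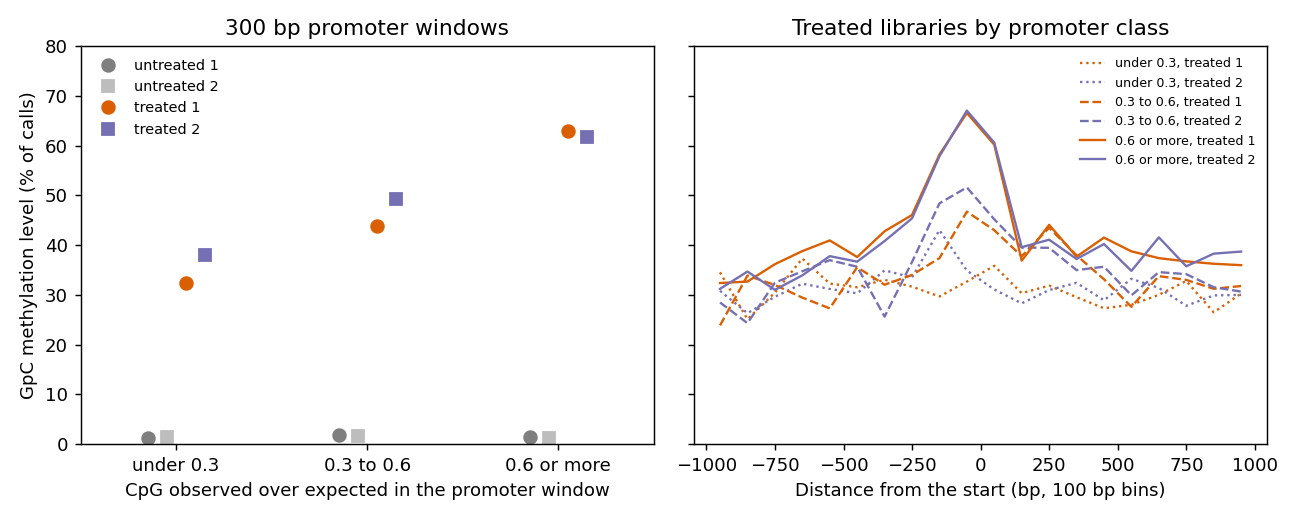
Left, GpC methylation level (percent of calls) of the 300 bp promoter windows in 3 classes of CpG observed over expected, 1 point per library. Right, the treated libraries against distance from the start in 100 bp bins, where the CpG-rich class reaches 66.8% just upstream of the start and the CpG-poor class 33.8%.

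Away from gene ends the level fell steeply at first and slowly after that. Beyond 100 kb the treated level was 27.4% ± 0.303 outside and 26.5% ± 0.186 inside genes. Without sites over 10 reads it was 25.9% ± 0.267 outside and 26.5% ± 0.152 inside. Outside genes, treated calls were methylated at 51.2% ± 0.807 within 100 bp of the nearest gene end, 38.4% ± 0.218 at 100 to 250 bp, 30.4% ± 0.382 at 500 to 1000 bp and 27% ± 0.0609 at 50 to 100 kb. Inside genes the corresponding values were 46.6% ± 1.1, 35.9% ± 0.295, 32.4% ± 0.0077 and 27.5% ± 0.393. Outside genes the level did not fall steadily, with 33.6% ± 0.0435 at 2 to 5 kb. Leaving out sites over 10 reads brought that value to 28.4% ± 0.0339 and changed the first 100 bp only to 51%. The untreated level went the other way outside genes, from 1.53% within 100 bp to 4.91% beyond 100 kb, and from 1.61% to 3.03% without sites over 10 reads.

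**Figure D3:**
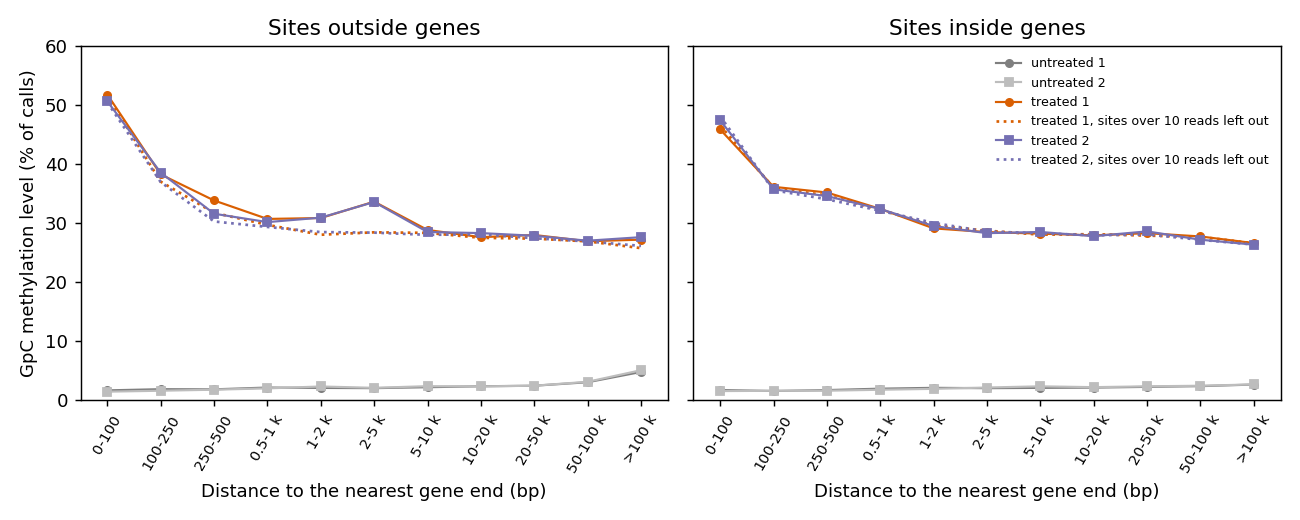
GpC methylation level (percent of calls, y axis) against distance to the nearest gene end for sites outside (left) and inside (right) genes, 1 line per library, dotted where sites over 10 reads are left out. Treated levels fall from about 50% within 100 bp to about 27% at the largest distances, and the rise at 2 to 5 kb outside genes is absent from the dotted lines.

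By class, treated levels were 35.7% and 35.2% within 1000 bp of gene ends, 28.2% and 28.2% in gene bodies and 28.8% and 28.8% in intergenic DNA. Gene ends exceeded gene bodies by 7.31 points ± 0.35 in the treated libraries and fell short of them by a mean difference of -0.469 points in the untreated ones (exact permutation p = 0.33). Around the ends of protein-coding genes, whichever strand, the centre (150 bp outside to 50 bp inside) stood at 53.5% ± 0.19 and the flanks (500 to 1000 bp) at 32.6% ± 0.163. Intergenic DNA and gene bodies could not be ordered. Intergenic DNA was 0.622 points higher in the treated and 0.577 points higher in the untreated libraries, and without sites over 10 reads it was lower in the treated ones, at 27.5% against 28.1%.

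Bodies of the longest genes were slightly less open than those of genes of middle length. Over 1000 bp from any end, the 4133 shortest protein-coding genes (up to 4389 bp) were at 29.1% and 27.6% in the treated libraries and the 4133 longest (from 57924 bp) at 28% and 28%. The 3 groups of 4133 genes between them had means of 28.97%, 28.53% and 28.5%, each above the longest group in both treated libraries, while the replicates of the shortest group lay on both sides of it. The exact permutation p of the difference between shortest and longest against the untreated libraries was 0.67, and without treated replicate 1 the sign of the net difference turned (0.759 points with it, -0.00885 without). Genes over 500 kb had the lowest level of the 8 length classes in both treated libraries, 26.4% and 26.8%, and genes of 200 to 500 kb were at 27.9% and 27.7%, where genes of 10 to 20 kb had 29% and 28.8%. Untreated levels moved in the opposite direction, 2.57% over 500 kb and 1.94% at 10 to 20 kb.

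Gene-dense DNA was more open than gene-poor DNA. Windows of 1 Mb with 22 to 77 genes had treated levels of 29.5% and 29.5%, and windows with 0 to 3 genes 26.3% and 26.7%, a difference of 3.03 points ± 0.332. Untreated levels differed by -0.939 points ± 0.0195, so the groups did not overlap (exact permutation p = 0.33). Intergenic sites alone gave 28.8% ± 0.197 and 26.4% ± 0.333. The treated order depended on which sites were counted. The treated difference was -6.32 points on sites with at least 5 reads (untreated -2.09) and -8.07 points with sites over 100 reads kept (untreated -14.5). Windows with 4 to 8 genes stood out at 31.5% ± 0.158, and at 27.7% ± 0.0835 without sites over 10 reads, when the 5 classes rose in order from 26.2% to 29.7%.

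The autosomes had nearly the same level. Chromosome means of the treated libraries lay between 28.3% and 29.5%, with the exceptions of chromosome 9 (31% ± 0.286) and chromosome 17 (32.9% ± 0.397). Chromosome 9 also had the highest untreated level, 5.3% ± 0.295, while chromosome 17 was at 1.98% ± 0.115. Without sites over 10 reads chromosome 17 lay within the range of the others, at 28.4% ± 0.163. Chromosome 9 remained the highest autosome in both treated libraries, at 29.27% and 29.38%, and the other autosomal means then spanned 27.97% to 28.93%. The highest of all windows lay on chromosome 17 (chr17:39000001-40000000), at 61.6% of 24977 and 62.7% of 22574 treated calls. Its untreated levels were 1.53% and 1.7%. The X chromosome was at 28.2% and 27.6%, 1.19 points ± 0.365 below the autosomes in the treated libraries, where the untreated ones differed by 0.169 points ± 0.0697 (exact permutation p = 0.33). Without sites over 10 reads the mean X difference was -0.288 points in the treated libraries, and its direction differed between replicates. The X was then at 28.67% and 27.92%, the autosomes at 28.62% and 28.54%. Sites were spread unevenly over chromosomes in all 4 libraries: the treated libraries had 433 and 428.2 sites per Mb on chromosome 15, 104.7 and 106.2 on chromosome 16, and 24.6 and 25.9 on the X.

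**Figure D4:**
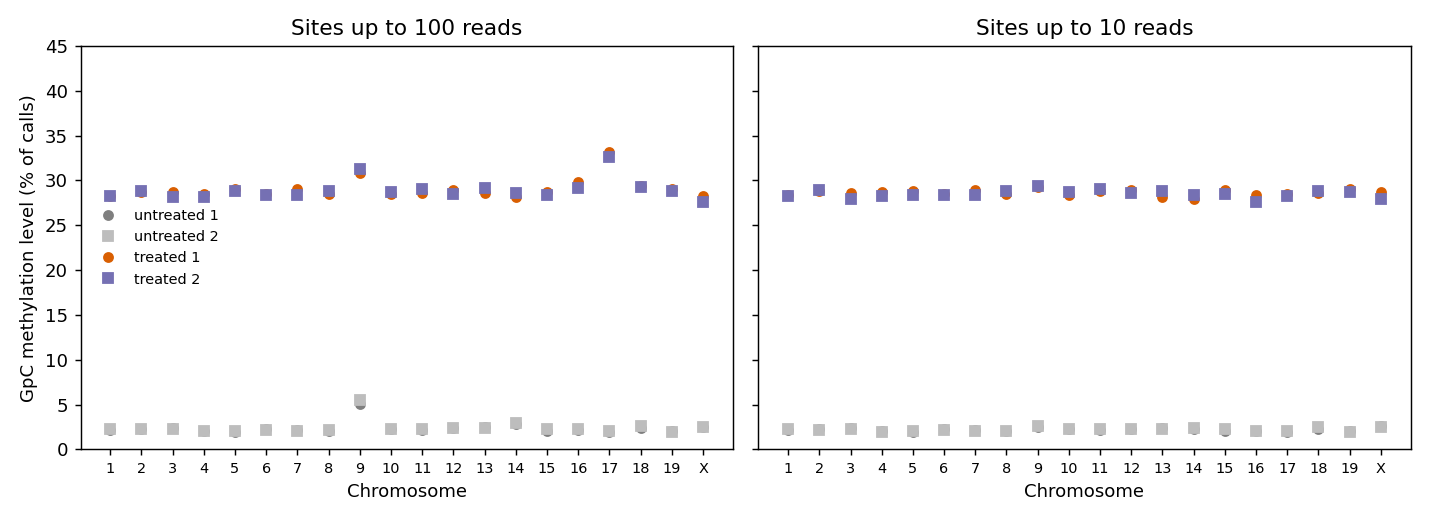
GpC methylation level (percent of calls, y axis) of each autosome and the X chromosome, 1 point per library, for sites up to 100 reads (left) and up to 10 reads (right). Chromosomes 9 and 17 stand above the other treated values on the left. On the right chromosome 17 lies within them and chromosome 9 is slightly above them, at 29.27% and 29.38%.

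Nucleosome spacing was examined through how far neighbouring sites resembled each other. In the treated libraries the Pearson correlation of site fractions was 0.66 and 0.66 at distances of 1 to 10 bp, fell to -0.033 and -0.022 at 81 to 90 bp, and rose again to 0.22 and 0.20 at 171 to 180 bp. In the untreated libraries it was 0.34 and 0.37 at 1 to 10 bp, 0.11 and 0.13 at 81 to 90 bp and 0.095 and 0.12 at 171 to 180 bp, with no dip. No clear second dip followed in the treated libraries, whose mean stayed between 0.139 and 0.158 from 241 to 400 bp. That height depended on deeper sites: without sites over 10 reads the treated mean lay between 0.021 and 0.062 there. Whether nucleosome spacing gave the dip and rise was not tested. These correlations run across pairs of sites of 1 library, which can share reads, and carry no p of their own. The swing, the correlation at 161 to 190 bp minus that at 71 to 100 bp, was 0.236 and 0.210 in the treated libraries and -0.0718 and -0.0705 in the untreated ones. The groups did not overlap, and the exact permutation p was 0.33. On sites with at least 5 reads the treated swing was only 0.0392.

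In gene bodies the treated correlation at 71 to 100 bp was -0.108 and -0.0924, against 0.0979 and 0.0895 untreated. In intergenic DNA it was -0.000194 and 0.00298, against 0.156 and 0.25 untreated. In both classes the treated values lay below the untreated ones, and the background of the classes differed. Within 1000 bp of gene ends the treated values stayed above 0, at 0.0708 and 0.114, and did not lie below both untreated ones (0.0716 and 0.0215). The correlation at 1 to 10 bp was highest there (0.755 and 0.754). At 161 to 190 bp it was 0.104 and 0.106 in gene bodies, 0.304 and 0.278 in intergenic DNA and 0.234 and 0.222 at gene ends, against untreated values of 0.00807 and 0.0208, 0.122 and 0.165, and 0.0261 and 0.102. Without sites over 10 reads the autosomal dip deepened to -0.079 and -0.071 at 81 to 90 bp, and the treated correlation at 161 to 170 bp was 0.15 and 0.11.

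**Figure D5:**
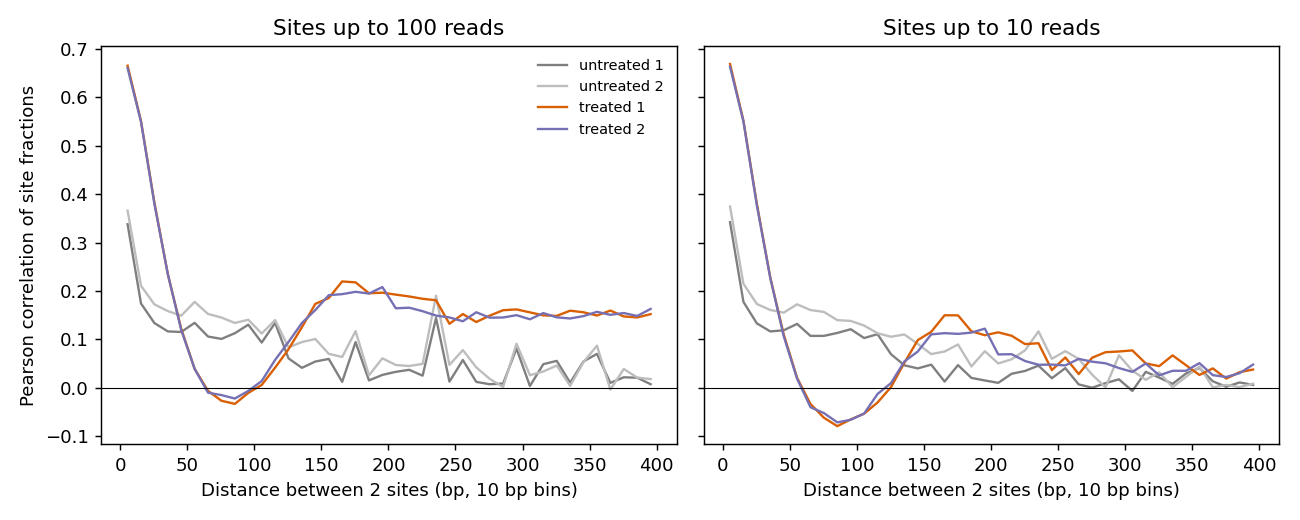
Pearson correlation of site fractions (y axis) against the distance between 2 sites in 10 bp bins, 1 line per library, autosomes, for sites up to 100 reads (left) and up to 10 reads (right). The treated lines dip below 0 near 81 to 90 bp and rise again to about 0.2 (left) near 161 to 180 bp, and the untreated lines show no dip.

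Reads of the same site were alike more often than a single shared level gives. Of autosomal sites with exactly 3 reads, 41.9% and 41.9% in the treated libraries had all reads methylated or all unmethylated, where 1 level for all sites gives 38.7% and 38.8%. Untreated values were 93.8% and 93.8% against 93.5% and 93.5%. Sites with all 3 reads methylated were 1.47 times as frequent as 1 level gives in both treated libraries. At gene ends all-methylated sites were 8.27% and 7.97%. The ratio was 1.92 in both at gene ends, 1.35 and 1.36 in gene bodies and 1.3 and 1.34 in intergenic DNA. In the untreated libraries all-methylated sites were rare, 0.0396% and 0.0493%, though 1 level gives only 0.00107% and 0.0011%.

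Few sites were measured more than once. Of autosomal sites, 21568 were shared by the treated libraries (3.83% and 3.89% of each), and their fractions correlated at r = 0.325 across sites, given as a description (0.217 over the 14010 with up to 10 reads in each). The untreated libraries shared 18184 sites, with r = 0.579. A total of 10918 sites were covered in all 4 libraries. At 8517 of them (78%) both treated fractions lay above both untreated fractions, at 33 (0.302%) both lay below, and at 274 (2.51%) all 4 were 0.

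Nearly every tested gene was higher with the enzyme when calls were pooled over the gene together with its flanks of 1000 bp. Of 6335 loci with at least 20 calls in each library, 6217 (98.1%) were higher and 0 lower in edgeR's quasi-likelihood test at an adjusted p below 0.05. At an unadjusted p below 0.05 edgeR also called 0 lower loci among 6218, and limma called 6236 higher and 0 lower. The tested loci were 5458 protein-coding and 877 lncRNA genes, 18.3% of those annotated, and long ones, with a median length of 63692 bp against 12757 bp for all. On the log2 odds scale the change had a median of 4.39 (5th to 95th percentile 2.67 to 7.55), and median levels were 28.9% treated and 1.83% untreated. The lowest treated level lay above the highest untreated level at 6279 loci. Treated replicates differed with a mean chi-square of 2.86 per degree of freedom over 3915 protein-coding loci with at least 50 treated calls, more than counting error alone gives.

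The 10 loci with the smallest p were unusually deep: their treated sites averaged 10.3 to 30.6 reads, where the median site had 3. They included Sfi1, a gene of centrosomes on chromosome 11 with 73011 and 72321 treated calls, which was at 27.7% and 28.2% treated and 2.34% and 2.36% untreated (log2 odds change 4.01). AY036118, a lncRNA on chromosome 17, was at 60.7% and 60.4% against 1.58% and 1.41%, a change of 6.66. Its 60.5% was far above the median locus, and its sites averaged 28.6 reads. Smo, the signal transducer of the Hedgehog pathway, was at 25.1% and 24.1% against 1.29% and 2.5% (4.13, edgeR adjusted p = 6.86e-130). Cdk8, a kinase of the Mediator complex, was at 48.6% and 58% against 1.43% and 2.08% (6.01, edgeR adjusted p = 2.09e-99). The p-values at Smo and Cdk8 varied widely with the fit, at similar changes. The limma adjusted p was 2.99e-08 at Smo and 7.37e-09 at Cdk8. Where 1 call per library sufficed, the edgeR adjusted p was 4.87e-05 and 1.38e-05. Without sites over 10 reads the change at Cdk8 was 2.58 (edgeR adjusted p = 0.0331) and that at AY036118 4.74 (edgeR adjusted p = 4.86e-12). Filip1l and Cmss1 overlap on chromosome 16 and share most of their calls, with treated means of 54.1% and 53.6% and changes of 6.58 and 6.51. The others were 2700054A10Rik and Gm36684 on chromosome 17 (24.7% each), Gm33862 within Sfi1 (28.4%) and Gm36876 on chromosome 11 (60.6%). Whether reads from near-identical copies add to these loci was not tested.

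The 118 loci that did not pass had both fewer calls and higher untreated levels. Their thinnest library held a median of 24 calls against 48 at called loci, and their median levels were 5.8% untreated and 18.4% treated against 1.8% and 29%. Tmem135, a peroxisomal and mitochondrial membrane protein gene, was the only locus with a fitted decrease, at 36% and 27.9% untreated and 25% and 35.8% treated (log2 odds change -0.09, edgeR adjusted p = 0.897). The libraries of both groups overlapped there, and the sign turned without untreated replicate 1 (0.189) or treated replicate 1 (0.245). The next lowest changes were those of Gm39903 (0.34), Nol12 (0.54), Pfdn1, a subunit of the prefoldin chaperone (0.59), and Morc1, a gene known from the male germ line (0.72). Gm39903 was at 31.5% and 27.9% untreated and 47.4% and 22.2% treated, and Pfdn1 at 36% and 19.7% untreated and 22.8% and 55.6% treated. Only 4 of all tested loci had a mean untreated level over 20%, and all 4 were among those that did not pass: Tmem135, Gm39903, Pfdn1 and 9130204K15Rik, the last named after its values were seen.

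Most single loci could not be ranked by openness at this depth. Over the 3915 described protein-coding loci of the autosomes, treated replicates correlated at r = 0.101 across loci, and at r = 0.363 over the 758 loci with at least 200 calls in each (0.176 over 742 without sites over 10 reads). The highest and lowest levels are therefore given without a test, and they were chosen by these same values. Angptl6, a secreted angiopoietin-like factor, was highest at 87% of 69 and 75.3% of 73 calls, with 0 of 33 calls in untreated library 2 and no call in library 1. It was followed by Esyt2 (45.9% and 78.2%), Gm40415 (54.3% and 62.5%), Gm51464 (58.2% and 57.1%) and Atf2, a bZIP transcription factor (54.2% and 61%). Zc3h7a was at 55.5% and 56.7%, Clasp2 at 62% and 49.4%, Faap100, a Fanconi anaemia pathway component, at 54.3% and 56.2%, and Taco1 at 52.4% and 55.7%, with Filip1l as above. The replicates of Zc3h7a, Gm51464 and Faap100 lay within 2 points of each other, those of Esyt2 over 30 points apart.

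The lowest level was that of Kdm3b, a histone H3K9 demethylase, at 12.6% of 87 and 6.9% of 58 calls, with untreated values of 0% and 6.67%. Catspere1 (15.1% and 7.58%), Klhdc4 (15% and 11.1%), Fer1l5 (14.5% and 11.7%) and Tmem273 (18.9% and 8.7%) came next. Nol4 was at 17.1% and 10.5%, Dicer1, the nuclease that matures miRNAs, at 16% and 12.2%, Fubp1 at 16.7% and 11.8%, Morc1 at 9.76% and 19%, and Ube3b at 13.6% and 15.6%. These values rest on 51 to 171 calls each. Among gene ends alone, 121 protein-coding genes had at least 20 calls in all 4 libraries. At 119 of them the lowest treated level lay above the highest untreated level, and treated means ran from 12% to 77.9% around a median of 38.6%.

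Gene ends of lists of genes with known roles were compared with those of all protein-coding genes, whose ends were at 37.7% and 37.2% treated and 1.72% and 1.58% untreated. Genes of fibroblasts and extracellular matrix (32 listed) had the highest treated ends, at 48.1% of 212 and 55.2% of 105 calls, from only 13 and 6 members. Mesenchymal transcription factors (30 listed) were at 39.9% and 32.3%, and housekeeping genes at 35.1% and 39.5%. Cytosolic ribosomal protein genes (84) were at 31.8% and 35.5%, endothelial genes at 29.8% and 39.3%. Lower values came from genes of blood (21.8% and 29.3%), pluripotency (29% and 21.7%), neural cells (31.3% and 18.5%) and epithelium and liver (24.2% and 24.2%). Olfactory receptors (1106 genes) were at 25.1% of 1234 and 29.2% of 1525 calls, and vomeronasal receptors (353) at 24.4% and 20.1%. In both treated libraries the fibroblast list lay above all protein-coding genes, the ribosomal, blood, pluripotency, neural, epithelial and receptor lists lay below, and the mesenchymal, housekeeping and endothelial lists had 1 library on each side. There the untreated ends of the lists lay between 0% and 4.55%. No test was made over the lists, and the number of members with calls differed between libraries.

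At whole loci the treated means of the 11 lists ran from 25.2% to 31.2%, a narrower range than at the ends (22.3% to 51.7%). All protein-coding genes were at 29.6% and 29.4%. Fibroblast and matrix genes (32.1% and 29.8%), mesenchymal transcription factors (30.8% and 31%) and ribosomal protein genes (30.3% and 32.1%) lay above them in both treated libraries. Housekeeping (25.7% and 26.3%), neural (25.7% and 27.5%), olfactory (24.5% and 28.1%) and vomeronasal genes (26.4% and 24%) lay below in both. All tested members were called higher: 11 of 11 fibroblast, 12 of 12 mesenchymal, 9 of 9 neural, 7 of 7 endothelial, 5 of 5 epithelial and liver, 3 of 3 housekeeping, 3 of 3 blood, 2 of 2 pluripotency and 1 of 1 vomeronasal, beside 98.1% of all loci. Their median changes ran from 3.79 (neural) to 5.08 (epithelial and liver) on the log2 odds scale around the 4.39 of all loci. The best covered fibroblast member was Col5a1, a fibrillar collagen chain, at 35.9% and 28.5% treated and 1.25% and 1.41% untreated. Runx2, the osteoblast transcription factor, was at 28.2% and 32.9%, Vwf, the endothelial clotting factor, at 29.8% and 32.8%, and Cd4, a T cell coreceptor, at 37.3% and 30.1%. Esrrb of pluripotent cells was at 33.2% and 30.3%, Cntnap2 of neurons at 25.6% and 27%, and Grhl2 of epithelia at 25.3% and 34.7%. Eef2, a translation elongation factor, was at 16% and 21.4%. Rpl13 (66.7% and 42.9%), Olfr455 (17.9% and 44.4%) and Vmn2r1 (21.1% and 16.7%) completed the set with few calls.

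The fibroblast label could not be checked at the level of single marker genes. Of 10 fibroblast markers, 2 had any end calls in treated library 1 and 1 in treated library 2: Vim, an intermediate filament of mesenchymal cells, at 85.2% of 27 calls, Thy1 at 33.3% of 3 calls, and Pdgfrb at 52.4% of 21 calls. Col1a2, Col3a1, Dcn, Lum and Pdgfra had no calls in any library. Endothelial markers were covered at Cdh5 (43.4% of 53 calls) and Kdr (17.9% of 28 and 66.7% of 6), blood markers at Spi1 (33.3% of 57) and Gata1 (0% of 3). Epithelial markers gave 24.1% of 79 and 44.4% of 9 calls, and neural markers 33.3% of 15 and 31.1% of 45. At this depth no marker separated the cell types, and openness is not expression.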

How the data were processed

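GpC methylation was read in 4 day 0 NOMe-seq libraries, 2 treated with M.CviPI and 2 untreated. The authors deposited 1 line per cytosine and library: the methylated fraction of its reads and, in another column, the count of reads. The columns have no header, and their units were read from the values. The build was mm10, per the submitters' processing notes. Aligner, methylation caller and duplicate removal: not given in the sources used here.

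Methylated calls were the rounded product of fraction and read count, and levels were pooled methylated calls over all calls. Sites over 100 reads were set apart. RefSeq genes (21887 protein-coding, 12727 lncRNA) and promoter windows gave ends, strand and sequence. Group means were compared by exact two-sided permutation. Gene loci with at least 20 calls in each library were tested with edgeR 4.0.16 (quasi-likelihood test comparing counts of methylated with unmethylated calls, Benjamini-Hochberg adjusted) and with limma 3.58.1 in R 4.3.3, both tested on simulated data. Python 3.11.15 with numpy 2.4.6 and pandas 2.3.3 did the rest. Loci were named as the 10 with the smallest p, the 5 lowest changes, the 10 highest and 10 lowest treated levels and the best covered member of each list. The groups and lists were chosen with earlier results of these data known, and leaving out sites over 10 reads was added after seeing the data.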

Additional observations from a re-analysis of the deposited data

Results flagged for a closer look

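Mitochondrial DNA lies outside the comparisons and gave a strong signal with the enzyme. Its treated level was 63.3% and 64.1%, a mean of 63.7% ± 0.566 (SD, n = 2), against 3.44% and 3.59% in the untreated libraries. Between 627 and 670 mitochondrial sites were covered in each library.

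Sites over 100 reads, which were set apart, also stood above the untreated libraries, at 47.2% and 48.9% (mean 48% ± 1.2) against 28.6% and 29% (mean 28.8% ± 0.28). Their untreated level was itself far above the 2.34% of the other autosomal sites. A stretch at chr9:3000015-3038082 held 146 of these positions at 49% and 50.5% treated and 31.6% and 31.9% untreated, and one at chr2:98662247-98667267 held 38 positions at 50.5% and 52% against 30.3% and 31.5%. By contrast, 70 positions within the lncRNA gene 2700054A10Rik (chr17:13550758-13553052) were at 23.9% and 26% treated and 1.32% and 1.71% untreated.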

How the results depend on the processing

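Of the recomputed values of the comparisons, 89 kept their direction or, for counts of loci, about their size, 5 changed sign and 1 count grew. Part of the 89 could not differ. The replicate block leaves each pooled difference as it is, and sites with exactly 3 reads are untouched by the limits at 10 and 100 reads. The 89 are therefore no measure of stability. Pooled levels of 2 against 2 libraries can pass no threshold, so their p says nothing about stability. Treated minus untreated, intergenic minus gene body was 0.0447 points and turned to -1.63 with sites over 100 reads kept, to -0.907 with sites over 10 reads left out and to -0.828 with each site weighted equally. Gene-dense minus gene-poor windows went from 3.97 to -4.23 on sites with at least 5 reads. With sites over 100 reads kept it was 6.41, from a treated difference of -8.07 and an untreated one of -14.5, and the causes were not tested. With each library left out in turn, shortest minus longest gene bodies ran from -0.00885 to 1.53, and the log2 odds change from -0.492 to 0.245 at Tmem135, from -0.553 to 1.09 at Gm39903, from -0.425 to 2.05 at Nol12 and from -0.313 to 1.75 at Pfdn1. Loci called higher rose from 6217 of 6335 (98.1%) to 10855 of 13988 when 1 call per library sufficed, because more loci were tested. Their share fell to 77.6%. With each library left out in turn, the median log2 odds change over loci ran from 4.39 to 4.64. The length comparison over 5000 bp from gene ends could not be computed, since none of the shortest genes is that long. With the replicate block, edgeR called 6035 of 6335 loci (95.3%). The autosomal difference of 26.8 points is the same with the block by arithmetic (exact sign-flip p = 0.50). Deviations of equal replicate numbers correlated at r = -0.01 across 6335 loci. Calls per locus were few, so this cannot tell whether equal numbers share a culture or batch. Most sites hold 3 reads, which limits single sites, promoters and markers.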
